A study of Drosophila melanogaster with 6 samples.

Results

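Cytoplasmic ribosomal protein genes encode the proteins of the machine that translates the mRNAs of the cytoplasm. They were taken here as all genes whose FlyBase symbol begins with RpL or RpS followed by a digit, A or P, together with sta, which encodes the small subunit protein SA; the mitochondrial mRp genes were left out. This gave 93 genes, 54 of the large and 39 of the small subunit. Of the 16428 genes in the exon-bin counts, 83 were members, 47 of the large and 36 of the small subunit, with 428 exon bins. Of these, 81 were tested among 11753 genes in all, and RpL37-2 and RpS28a stayed below the filter on low counts.

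The series measured poly(A) mRNA of Drosophila indirect flight muscle (IFM), the fibrillar muscle that powers the wings, dissected at 72 h after puparium formation (APF) from animals kept at 27 °C. Every group carried Mef2-Gal4, a driver active in all muscle and so not limited to IFM. WT carried the driver with no hairpin (Mef2-Gal4 / +), SF1-IR carried Mef2-Gal4 and the hairpin SF1-RNAi (GD5176), and Hrb87F-IR carried Mef2-Gal4 and the hairpin Hrb87F-RNAi (TRiP.JF01757). Each group had 2 libraries, and each library pooled the IFM of many flies, so that the spread between libraries is a spread between pools. SF1 is splicing factor 1, which binds the branch point of introns, and Hrb87F is an hnRNP of the A/B class that binds pre-mRNA. The comparisons ask how the mRNA level and the exon use of the ribosomal protein genes stood when each factor was targeted by its hairpin.

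A ribosome is made of a large (60S) and a small (40S) subunit, each built of ribosomal RNA and its own set of proteins. The proteins are needed in matched amounts, and in flies heterozygous loss of many of them gives the Minute phenotype of slow growth and short bristles. Several fly ribosomal protein genes have a second copy, which in a number of cases is used mainly in the germline.

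Exon-bin totals ranged from 63393347 to 72057010 counts per library. The members held 4.60% and 4.54% of all exon-bin counts in the WT libraries. This share was 4.60% and 5.13% for SF1-IR, compared with 3.87% and 4.01% for Hrb87F-IR, so that Hrb87F-IR lay below the others. The widest 95% Wilson interval of these shares ran from 5.126% to 5.137%, and it covers counting error only. Levels below are CPM (the count over the library total, in parts per 1000000) after TMM scaling, which sets the bulk of genes level between libraries; its factors ranged from 0.844 in WT replicate 2 to 1.14 in SF1-IR replicate 2. SF1 stood at 24.6 and 29.9 CPM in WT and at 25.6 and 19.3 CPM in SF1-IR, so that its mRNA overlapped between the groups (log2 −0.28, edgeR adjusted p = 0.47). Hrb87F stood at 29.8 and 30.5 CPM in WT and at 14.8 and 18.1 CPM in Hrb87F-IR (edgeR quasi-likelihood test, Benjamini-Hochberg adjusted p = 0.035). Markers of fibrillar muscle summed to 291994 and 322040 CPM in WT, 221246 and 214934 CPM in SF1-IR, and 230241 and 209372 CPM in Hrb87F-IR, with none of the 12 at 0. Of these 12, 7 were lower in SF1-IR and 1 in Hrb87F-IR at an adjusted p under 0.05, against 4.7% and 1.25% of all tested genes. With library totals alone in place of TMM, 3 were lower and 1 higher in SF1-IR at this threshold, and 1 was lower in Hrb87F-IR. For that scaling the share of all tested genes is not given here. The part of these muscle genes in the results below was not tested. In pooled tissue, fewer muscle cells and less RNA per cell cannot be told apart. Testis markers summed to 388 CPM in WT replicate 1 and 371 CPM in SF1-IR replicate 2, against 206 to 283 CPM in the other 4 libraries. The marker bol alone held 176 to 270 CPM of this sum, so that the sum says little of the other testis markers in those 4 libraries. The summed markers of tendon (514 to 691 CPM), trachea (485 to 782), neurons (560 to 789), haemocytes (570 to 642), fat body (251 to 335) and germline (1.70 to 4.14) stayed low beside those of muscle in all libraries.

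In WT the members covered a wide range of levels per length (CPM per kilobase of the gene's bins, mean ± SD, n = 2). A read over several bins counts in each, so that this order also depends on how a gene is cut into bins. In SF1-IR replicate 1, for example, the bin sums of 75 members exceeded their counts per gene by log2 1.00 to 2.35. RpL41, which encodes the smallest of the ribosomal proteins, was the highest at 7889 ± 356. It was followed by RpL39 at 2250 ± 82.0, RpL29 at 1992 ± 74.8, RpL23 at 1788 ± 36.5 and RpL14 at 1465 ± 69.9. RpL14 did not differ beyond this spread from RpL36A at 1450 ± 40.4. At the other end, RpS19b, RpL10Aa, RpL22-like, RpS28a, RpS5b and RpL37-2 each stood below 1 CPM per kilobase. Among the 83 members, 75 had at least 1000 counts in every library, 43 of the large and 32 of the small subunit.

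Relative to TMM scaling, most ribosomal protein genes were lower in Hrb87F-IR than in WT. The median log2 fold change over the 81 tested members was −0.43, against −0.03 over all tested genes, and 74 of the 81 were negative. In 69 members both Hrb87F-IR libraries lay below both WT libraries, and in 2 they lay above, where 21.1% of all tested genes lay below and 24.2% above. At an adjusted p under 0.05 (edgeR quasi-likelihood test), 19 members were lower and none higher, against 1.25% of all tested genes lower and 0.519% higher. At an adjusted p under 0.01, the threshold set for a call, none passed with edgeR, where 0.0425% of all tested genes were called lower and 0.017% higher. With DESeq2 44 passed, but the share of all tested genes that DESeq2 called is not given here, so this count has no base beside it. At an unadjusted p under 0.05, 53 were lower and 1 higher (7.41% and 7.75% of all tested genes). With 1 WT or Hrb87F-IR library left out, fewer or no members passed at an adjusted p under 0.05. These fits leave 1 library in a group and so have less power. The median of the members in them was −0.44 without WT replicate 1 and −0.34 without WT replicate 2. It was −0.44 without Hrb87F-IR replicate 1 and −0.41 without Hrb87F-IR replicate 2.

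The same comparison for SF1-IR gave smaller differences. The median over the members was −0.23, against −0.02 over all tested genes, and 71 of 81 were negative. Both SF1-IR libraries lay below both WT libraries in 56 members and above in 2, where 22.7% and 22.5% of all tested genes did so. At an adjusted p under 0.05, 14 members were lower and none higher, against 4.7% of all tested genes lower and 2.76% higher. At an adjusted p under 0.01, 1 member, RpL34b, was called lower and none higher, against 1.41% and 1.27% of all tested genes. At an unadjusted p under 0.05, 33 were lower and 1 higher (11.4% and 8.26%). DESeq2 called 21 at 0.01, again without its share of all tested genes. This direction depended on the scaling: with library totals alone in place of TMM, the median of all genes moved to 0.33 and that of the members to 0.12, and 1 member was lower and 9 higher at an adjusted p under 0.05. Relative to the median of all genes, the members stood at −0.22 with TMM and at −0.21 with library totals. For Hrb87F-IR, the same change of scaling moved the median of all genes to 0.16 and of the members to −0.23. Relative to all genes, the members stood at −0.40 with TMM and at −0.39 with library totals. With library totals, 18 members were lower and 2 higher at an adjusted p under 0.05. The share of all tested genes passing with library totals is not given here. With any 1 library left out, fewer members than these 14 passed in SF1-IR, in fits that leave 1 library in a group and so have less power. The median of the members in these fits ran from −0.32 without SF1-IR replicate 2 to −0.12 without WT replicate 2.

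**Figure D1:**
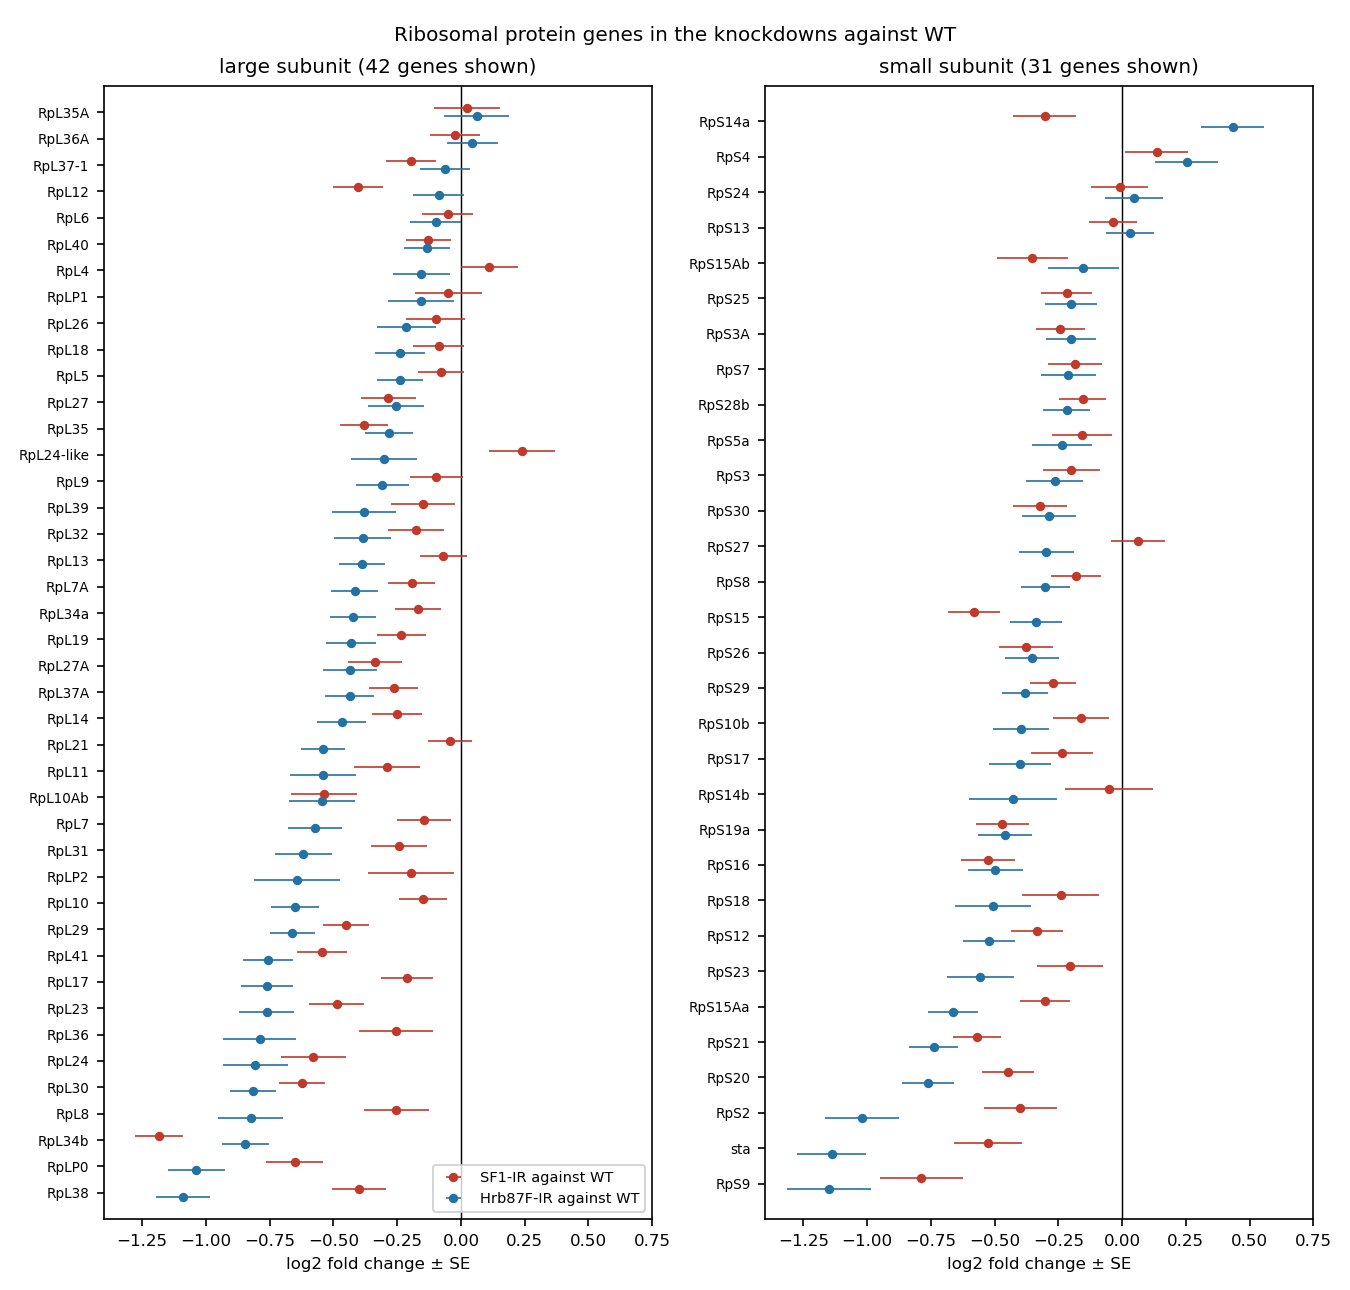
Log2 fold change (x axis, with its standard error) of 73 of the 75 members with at least 1000 counts in every library, by subunit, in SF1-IR (red) and Hrb87F-IR (blue) against the same 2 WT libraries. On this TMM scale both subunits lie mainly left of 0, with medians over all tested members of −0.23 (SF1-IR) and −0.43 (Hrb87F-IR); with library totals alone they would be 0.12 and −0.23.

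The medians of large and small subunit genes were close to each other in both knockdowns. In SF1-IR the median was −0.20 over 46 large and −0.24 over 35 small subunit genes, with 7 lower in each at an adjusted p under 0.05. In Hrb87F-IR it was −0.44 and −0.40, with 13 large and 6 small subunit genes lower. The ratio of large to small subunit counts, which does not depend on scaling, was 1.52 and 1.51 in WT, 1.54 and 1.52 for SF1-IR, compared with 1.39 and 1.43 for Hrb87F-IR, so that both Hrb87F-IR libraries lay below the other 4. Members with a small nucleolar RNA inside the gene (22 tested) had a median of −0.26 in SF1-IR and −0.45 in Hrb87F-IR, beside −0.20 and −0.42 in the 59 without one.

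RpL34b, a large subunit gene, had the most negative change of any member in SF1-IR. Its level was 676 and 709 CPM in WT, 295 and 315 CPM in SF1-IR, and 381 and 390 CPM in Hrb87F-IR. All 3 groups were apart, with SF1-IR the lowest. The log2 fold change against WT was −1.18 ± 0.09 (SE) in SF1-IR (edgeR adjusted p = 0.0015) and −0.85 ± 0.09 in Hrb87F-IR (adjusted p = 0.018). Leaving out 1 library at a time gave adjusted p-values of 0.0046 to 0.017 in SF1-IR, and with library totals alone the change was −0.84. In Hrb87F-IR the adjusted p was above 0.05 without WT replicate 2 (0.13), Hrb87F-IR replicate 1 (0.43) or Hrb87F-IR replicate 2 (0.22).

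The stalk of the large subunit, which recruits the translation GTPases, is built from RpLP0, RpLP1 and RpLP2. RpLP0, its base, stood at 960 and 1092 CPM in WT, 621 and 685 CPM in SF1-IR, and 520 and 480 CPM in Hrb87F-IR. Its groups did not overlap, with log2 changes of −0.65 ± 0.11 (adjusted p = 0.018) and −1.04 ± 0.11 (adjusted p = 0.018). RpLP1 stood at 860 and 899 CPM in WT, 745 and 954 CPM in SF1-IR and 789 CPM in both Hrb87F-IR libraries, and did not pass in either comparison. RpLP2 stood at 321 and 338 CPM in WT, 237 and 339 CPM in SF1-IR, and 205 and 218 CPM in Hrb87F-IR, with a log2 change of −0.64 ± 0.17 in Hrb87F-IR that did not pass (adjusted p = 0.13).

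Among the large subunit genes that passed at 0.05 in Hrb87F-IR, RpL38, known in mice for its part in the translation of Hox mRNAs, had the most negative change. Its level was 359 and 391 CPM in WT, 292 and 276 CPM in SF1-IR, and 166 and 186 CPM in Hrb87F-IR. The Hrb87F-IR libraries were the lowest and the groups did not overlap. The log2 change was −1.09 ± 0.11 in Hrb87F-IR (adjusted p = 0.017) and −0.40 ± 0.11 in SF1-IR (adjusted p = 0.077). RpL30, whose yeast counterpart binds its own transcript and holds back its splicing, stood at 440 and 455 CPM in WT, 282 and 299 CPM in SF1-IR and 253 and 256 CPM in Hrb87F-IR. It was lower in both knockdowns, at −0.62 ± 0.09 (adjusted p = 0.010) and −0.82 ± 0.09 (adjusted p = 0.019). RpL41 stood at 2444 and 2605 CPM in WT, 1722 and 1737 CPM in SF1-IR and 1413 and 1574 CPM in Hrb87F-IR, with log2 changes of −0.55 (adjusted p = 0.022) and −0.76 (adjusted p = 0.024).

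Of the small subunit genes, RpS9, a protein of the small subunit body, stood at 438 and 466 CPM in WT, 218 and 306 CPM in SF1-IR and 198 and 210 CPM in Hrb87F-IR, with log2 changes of −0.79 ± 0.16 (adjusted p = 0.035) and −1.15 ± 0.16 (adjusted p = 0.031). The gene sta stood at 479 and 542 CPM in WT, 315 and 394 CPM in SF1-IR and 232 CPM in both Hrb87F-IR libraries. It passed in Hrb87F-IR (−1.14 ± 0.13, adjusted p = 0.021) and not in SF1-IR (−0.53 ± 0.13, adjusted p = 0.069). RpS21, whose protein has been linked to that of sta in flies, stood at 402 and 444 CPM in WT, 283 and 287 CPM in SF1-IR and 256 and 250.5 CPM in Hrb87F-IR, and was lower in both (adjusted p = 0.018 and 0.024). RpS2, which lines the mRNA entry side of the small subunit, stood at 610 and 646 CPM in WT, 411 and 542 CPM in SF1-IR, and 299 and 319.7 CPM in Hrb87F-IR. Its change of −1.02 ± 0.14 passed in Hrb87F-IR (adjusted p = 0.031), and the SF1-IR value of −0.40 ± 0.14 did not (adjusted p = 0.18).

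Other members at an adjusted p under 0.05 included RpS15, RpL29, RpS16, RpL24, RpL23, RpS19a and RpS20 in SF1-IR, with log2 changes from −0.58 to −0.45, and RpS20, RpL29, RpL17, RpL23, RpL10, RpS15Aa, RpL8, RpL24 and RpL21 in Hrb87F-IR, with changes from −0.82 to −0.54. RpL23 and RpL24 sit where the subunits meet, and RpL10 joins the large subunit late in its assembly. The comparisons share the WT libraries, so that a gene low in both is not an independent observation of each.

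A few well covered members stood apart from this pattern. RpL4, a core protein of the large subunit, stood at 958 and 1069 CPM in WT, 1040 and 1149 CPM in SF1-IR and 958 and 861 CPM in Hrb87F-IR. RpS4 stood at 787 and 942 CPM in WT, 908 and 991 CPM in SF1-IR and 1087 and 973 CPM in Hrb87F-IR. Neither passed in any comparison, although in Hrb87F-IR both libraries lay just below WT for RpL4 and above WT for RpS4. RpL36A and RpS13 overlapped between all groups, with log2 changes between −0.04 and 0.04. RpL40, which encodes ubiquitin fused to a large subunit protein, stood at 335 and 352 CPM in WT and at 310.4 to 318 CPM in the 4 knockdown libraries, below WT in all 4, with log2 changes of −0.13 in each comparison that did not pass. The most positive values in SF1-IR belonged to RpLP0-like (0.57, adjusted p = 0.19), RpL10Aa, RpL24-like and the weakly expressed RpS5b, none of which passed. RpL35A, RpS24 and RpLP0-like had small positive values in Hrb87F-IR, from 0.05 to 0.24.

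**Figure D2:**
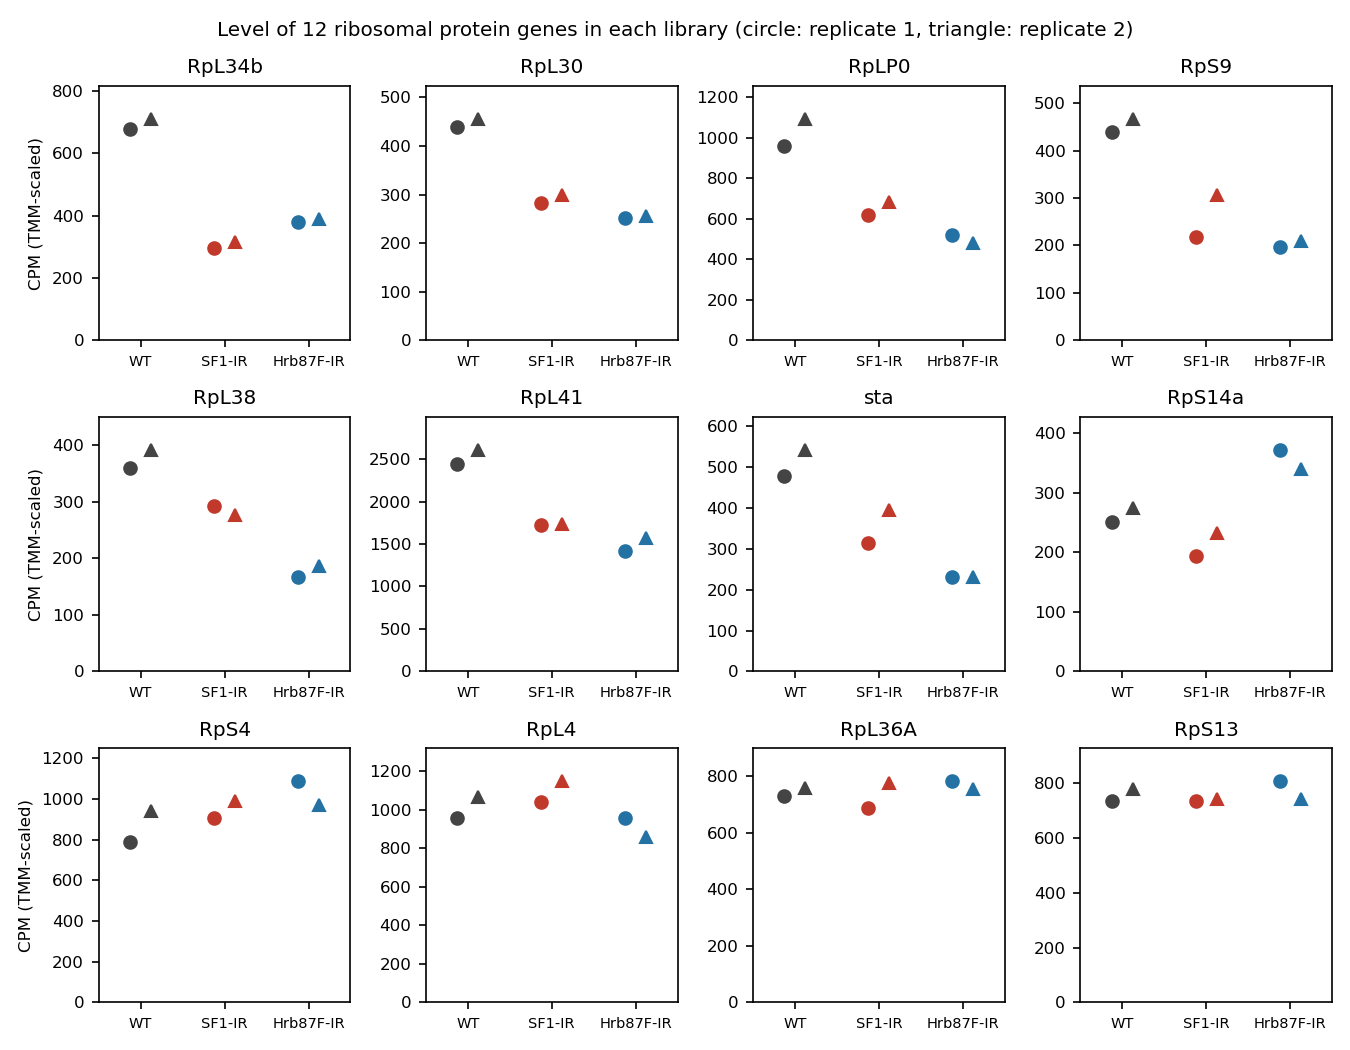
TMM-scaled CPM (y axis, from 0) of 12 members in each of the 6 libraries, by group. In the first 7 panels from RpL34b to sta, both Hrb87F-IR libraries lie below both WT libraries; RpS14a lies above WT in Hrb87F-IR, and RpL36A and RpS13 overlap between the groups.

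Set directly against each other, SF1-IR stood higher than Hrb87F-IR for many members. The median log2 difference was 0.19, against 0.04 over all tested genes, with 7 members higher and 1 lower at an adjusted p under 0.05 (3.02% and 3.84% of all tested genes). At an adjusted p under 0.01, 1 was called higher and none lower (1.33% and 0.8% of all tested genes); at an unadjusted p under 0.05, 23 were higher and 4 lower (7.77% and 11.5%). The SF1-IR libraries lay above both Hrb87F-IR libraries in 46 members and below in 6, where 22.8% and 26% of all tested genes did so. Those higher included RpL38, RpL21, RpL10, RpL17, sta and RpL8, and the one lower was RpS14a. Of these 8, none kept an adjusted p under 0.05 when either Hrb87F-IR library was left out.

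The 10 members without exon bins in that table were RpL3, RpL7-like, RpL13A, RpL15, RpL22, RpL23A, RpL28, RpS6, RpS27A and RpS28-like. They had counts per gene, where the WT columns do not match the exon-bin counts, so that only the knockdowns are given. RpL3, whose protein reaches towards the peptidyl transferase centre, stood at 613 and 711 CPM (library totals) in SF1-IR and 654 and 628 CPM in Hrb87F-IR. RpS6, the target of S6 kinase, stood at 466 and 564 CPM in SF1-IR and 438 and 437 CPM in Hrb87F-IR. RpS27A, the other ubiquitin fusion, stood at 564 and 660 CPM in SF1-IR and 459 and 484 CPM in Hrb87F-IR, with a log2 difference of 0.36 ± 0.10 (edgeR adjusted p = 0.09). None of the 8 genes that could be tested passed at 0.05 with edgeR, and RpL13A and RpS27A had an unadjusted p under 0.05. RpL7-like had 0 counts in all 4 libraries.

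Paralog copies differed in how they moved against each other. Ratios below are log2 of the counts of the major over the minor copy, with a pseudocount of 1 count, and 2 against 2 libraries cannot give an exact permutation p below 0.333. RpL34b stood 2.62 and 2.68 above RpL34a in WT, 1.56 and 1.71 for SF1-IR, compared with 2.21 and 2.25 for Hrb87F-IR. The groups did not overlap, and RpL34a itself, at 110 and 111 CPM in WT, 100.2 and 96.2 CPM in SF1-IR and 82.5 and 82.1 CPM in Hrb87F-IR, did not pass in either comparison. RpL24 over RpL24-like, a factor of large subunit assembly in yeast, stood at 5.12 and 5.30 in WT, 4.31 and 4.45 for SF1-IR, compared with 4.78 and 4.63 for Hrb87F-IR. RpLP0 over RpLP0-like, whose yeast counterpart helps to assemble the stalk, stood at 7.08 and 7.71 in WT, 5.97 and 6.35 for SF1-IR, compared with 6.07 and 6.12 for Hrb87F-IR. In all 3 pairs the WT libraries were the highest, at an exact permutation p of 0.333.

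RpS14a and RpS14b are neighbouring copies on the X chromosome whose coding sequences are nearly the same, and reads that fit both could be split or dropped by the authors' counting, so that their single levels are uncertain. RpS14a stood at 251 and 275 CPM in WT, 194 and 233 CPM in SF1-IR and 372 and 339 CPM in Hrb87F-IR. RpS14b stood at 154 and 162 CPM in WT, 127 and 178 CPM in SF1-IR, and 108 and 127 CPM in Hrb87F-IR. The log2 ratio of RpS14a to RpS14b was 0.70 and 0.77 in WT, 0.61 and 0.39 for SF1-IR, compared with 1.78 and 1.42 for Hrb87F-IR. Both Hrb87F-IR libraries were thus above the other 4. RpS14a did not pass against WT (log2 0.43 ± 0.12, adjusted p = 0.16) and was lower in SF1-IR than in Hrb87F-IR (−0.74 ± 0.12, adjusted p = 0.020).

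RpS15Aa over RpS15Ab stood at 3.90 and 3.97 in WT, 4.09 and 3.90 for SF1-IR, compared with 3.34 and 3.51 for Hrb87F-IR. RpS10b over RpS10a stood at 9.22 and 8.87 in WT, 9.50 and 9.27 for SF1-IR, compared with 9.09 and 9.61 for Hrb87F-IR, with overlap between Hrb87F-IR and WT. In these 6 pairs both copies had at least 10 counts in every library. In the pairs RpL10Ab to RpL10Aa, RpL37-1 to RpL37-2, RpS5a to RpS5b, RpS19a to RpS19b and RpS28b to RpS28a the minor copy fell under that count in at least 1 library, and the major copy was higher by a log2 ratio of 8.19 or more throughout. Counts per gene gave ratios of 13.5 to 14.1 for RpL7 to RpL7-like, 6.57 to 11.9 for RpL22 to RpL22-like and 10.4 to 13.8 for RpS28b to RpS28-like in the 4 knockdown libraries.

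**Figure D3:**
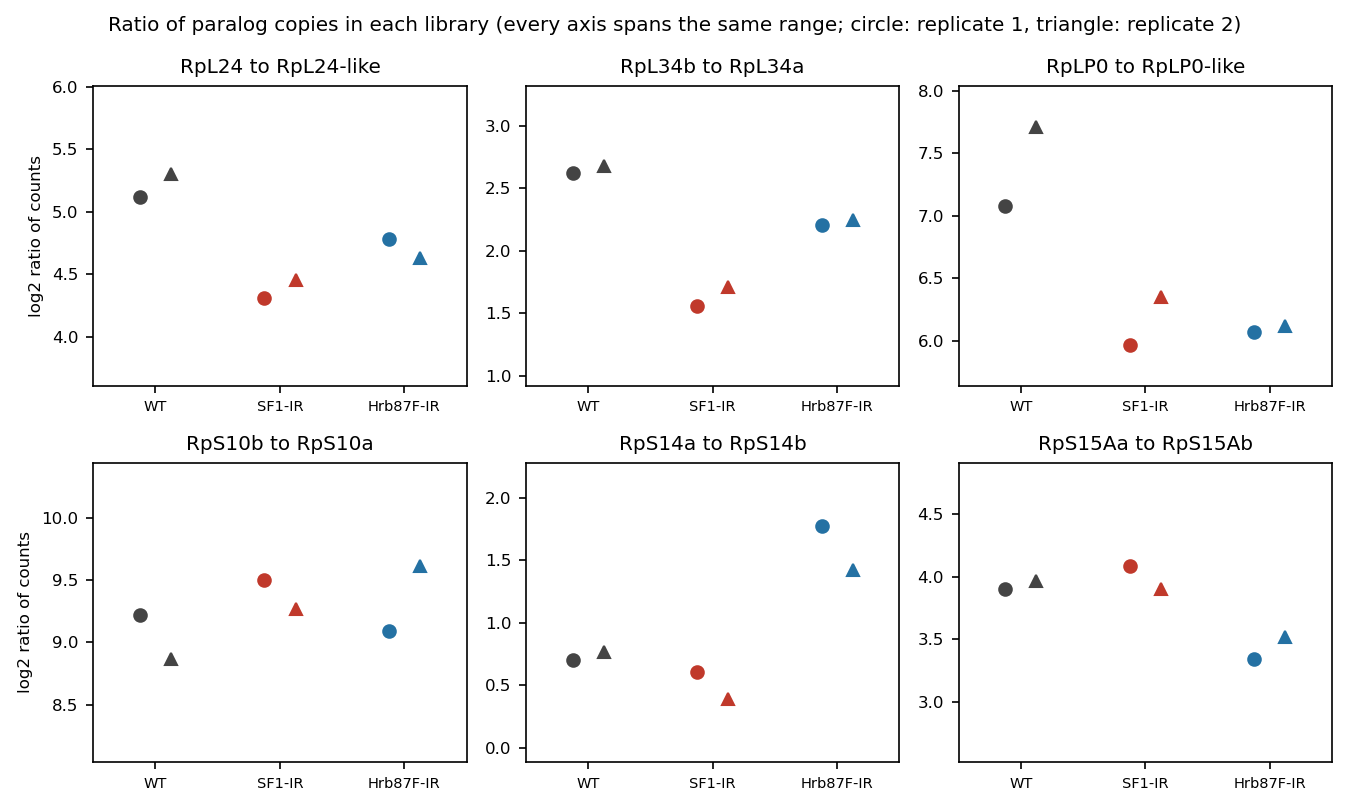
Log2 ratio of the counts of 2 paralog copies (y axis, all panels to the same scale) in each of the 6 libraries, by group. RpL34b against RpL34a is lowest in SF1-IR, near 1.6, and RpS14a against RpS14b is highest in Hrb87F-IR, at 1.78 and 1.42.

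The weakly expressed copies RpL10Aa, RpS19b and RpL22-like were high in single libraries rather than in groups. RpL10Aa, a copy of RpL10Ab, had 74 and 1 counts in WT, 2 and 112 for SF1-IR, compared with 12 and 6 for Hrb87F-IR. RpS19b, the germline copy of RpS19a, had 74 and 0 counts in WT, 2 and 87 for SF1-IR, compared with 0 and 7 for Hrb87F-IR. RpL22-like, a copy known from the male germline, had 78 and 4 counts in WT, 0 and 70 for SF1-IR, compared with 0 and 59 for Hrb87F-IR. All 3 were high in WT replicate 1 and SF1-IR replicate 2, the libraries with the most testis marker RNA, and RpL22-like also in Hrb87F-IR replicate 2. In that library the testis markers loopin-1 and S-Lap7 stood at 9.47 and 5.29 CPM, against 1.68 and 0.944 CPM in Hrb87F-IR replicate 1. The marker bol went the other way, at 176 against 195 CPM. The testis marker Mst87F stood at 14.3 and 1.14 CPM in WT, 2.60 and 12.9 CPM in SF1-IR, and 1.23 and 3.74 CPM in Hrb87F-IR. Of the 23 testis markers with counts, 0 to 5 were at 0 in a library, and 1 of them, bol, made up 176 to 270.1 CPM of the sum. The part of testis RNA in these copies was not tested. None of them passed in any comparison.

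**Figure D4:**
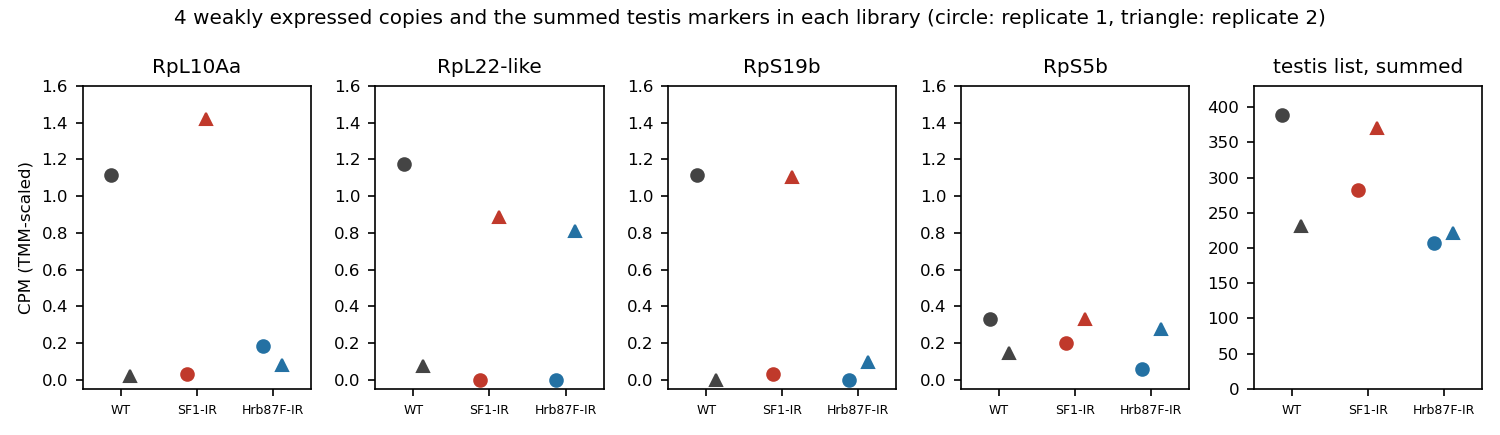
TMM-scaled CPM (y axis) of 4 weakly expressed copies and the summed CPM of the 23 testis markers in each of the 6 libraries. RpL10Aa, RpL22-like and RpS19b reach 0.89 to 1.42 CPM in WT replicate 1 and SF1-IR replicate 2, where the testis sum is also highest, at 388 and 371 CPM.

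Exon use was tested for 390 bins of 75 members, each bin against the rest of its gene (edgeR diffSpliceDGE). In SF1-IR, 19 bins of 14 genes passed at an unadjusted p under 0.01, all used more and none less, against 0.645% of all tested bins used more and 0.327% used less. Of the 19, 8 had an adjusted p under 0.05 over all bins. With limma's diffSplice 19 were used more and 7 less. Leaving out WT replicate 2 left 10 used more and leaving out SF1-IR replicate 2 left 12, while without SF1-IR replicate 1 there were 11 used more and 5 less. With at least 10 counts in every library, 13 were used more and 2 less. In Hrb87F-IR, 9 bins passed, 1 used more and 8 less (0.236% and 0.42% of all tested bins), and none had an adjusted p under 0.05. Without Hrb87F-IR replicate 1, Hrb87F-IR replicate 2 or WT replicate 1, those 9 became 2, 3 and 5.

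In SF1-IR, 15 of these 19 bins lay inside an intron of another annotated transcript of the same gene. The members had 39 tested bins of this kind in 25 genes, and 38.5% of them passed as used more and none as used less, against 3.5% and 0.692% of the 2311 such bins over all genes. This class was defined after values had been seen. Its 15 passing bins came from 10 genes, and some were neighbouring bins of the same gene. A read over several bins counts in each, so that these bins are not independent. The bins over all genes were not matched to those of the members for depth. Of the 15, 13 lay in 5′-UTR sequence alone, as did 32 of the 39 tested. Leaving out WT replicate 2 or SF1-IR replicate 2 brought the 15 to 8 of 40 such bins, and leaving out both WT replicate 1 and SF1-IR replicate 2 brought it to 10 of 40. With limma 12 were used more and 1 less. In Hrb87F-IR, none of the 39 was used more at this threshold and 1, RpL9 bin 5, was used less (0.563% and 0.779% of such bins over all genes); limma found 1 and 1. Of the 15 bins, only RpS19a bin 3 reached an unadjusted p under 0.05 when Hrb87F-IR was compared with WT.

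RpS19a, a small subunit gene, had the smallest p. Its bin 3 (chrX:16637950-16638140, plus strand, BDGP6.22, 191 bases of 5′-UTR) had 14 and 14 counts in WT, 487 and 413 for SF1-IR, compared with 23 and 33 for Hrb87F-IR. Per 1000 counts of the gene, that was 0.341 and 0.368 in WT, 14.4 and 11.2 for SF1-IR, compared with 0.701 and 0.986 for Hrb87F-IR. The SF1-IR libraries were far above the other 4, with a log2 change in use of 3.58 ± 0.23 (diffSpliceDGE adjusted p = 3.6e-11). The neighbouring bins 4 and 2 of RpS19a also passed the unadjusted threshold, with adjusted p = 0.0013 and 0.97, while the summed level of the gene was lower (log2 −0.47 ± 0.10, adjusted p = 0.046).

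RpS21 bin 6 (chr2L:2856569-2856630, plus strand, coding and 3′-UTR) took 23.5 and 24.9 per 1000 gene counts in WT, 83.1 and 85.0 for SF1-IR, compared with 28.6 and 31.3 for Hrb87F-IR. Its change in use was 1.25 ± 0.10 (adjusted p = 3.46e-10). RpL37A bin 3 (chr2L:5071031-5071102, plus strand, 5′-UTR) took 1.37 and 1.45 in WT, 8.74 and 6.78 for SF1-IR, compared with 1.32 and 1.12 for Hrb87F-IR (log2 1.71 ± 0.15, adjusted p = 0.00015). In both genes Hrb87F-IR lay near WT. RpL29 bin 2 (chr2R:21293790-21293849, plus strand, 5′-UTR) took 9.69 and 7.22 in WT, 23.2 and 19.6 for SF1-IR, compared with 6.37 and 8.33 for Hrb87F-IR (log2 0.93 ± 0.12, adjusted p = 0.00028). RpS5a bin 7 (chrX:17148057-17148203, minus strand, 5′-UTR) and RpS15Aa bin 4 (chrX:13337540-13337602, minus strand, 5′-UTR) passed at adjusted p = 0.0044 and 0.012. The others were bins of RpS15Aa, RpL7A, RpL17, RpL36 and RpS15, with log2 changes from 0.42 to 2.92 and no adjusted p under 0.05.

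Of the bins outside this class, RpS3A bin 1 (chr4:65225-65521, minus strand, 3′-UTR at a transcript end) took 0.327 and 0.359 per 1000 gene counts in WT, 2.53 and 2.48 for SF1-IR, compared with 0.306 and 0.564 for Hrb87F-IR (log2 1.98 ± 0.21, adjusted p = 0.00014). RpL5, which carries the 5S RNA to the large subunit, had 0 counts in WT in its 3′ bin 1, 25 and 26 in SF1-IR, compared with 0 and 20 in Hrb87F-IR. RpL30 bin 1, also in 3′-UTR, passed too. Of the 75 members tested for bins, 14 had a bin used more in SF1-IR. Of the 81 members tested for level, 14 were lower in SF1-IR at an adjusted p under 0.05. These lists shared 6 genes, and whether that exceeds the overlap of unrelated lists was not tested.

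**Figure D5:**
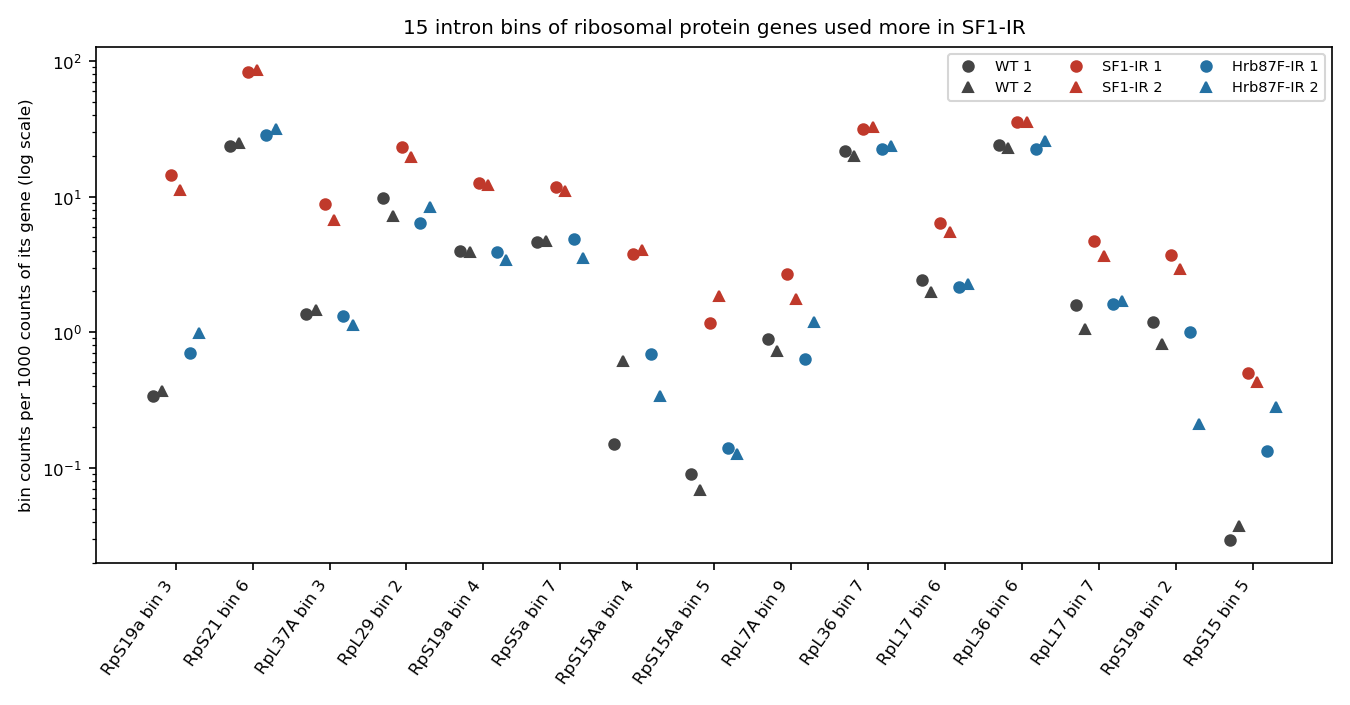
Counts of 15 bins that lie inside an intron of another transcript, per 1000 counts of the gene (y axis, log scale), in each of the 6 libraries. The bins were chosen because they passed as used more in SF1-IR (red), so that its place above WT is fixed by the choice; RpS19a bin 3 goes from 0.341 and 0.368 in WT to 14.4 and 11.2 in SF1-IR.

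Of the 9 bins that passed in Hrb87F-IR, 3 were first bins present in every transcript and 5 lay at the start or end of some transcripts. Among those 5, RpL7A bin 10 was 5′-UTR at a transcript start. The bins of RpL12, RpS23, RpL35 and RpL5 were 3′-UTR. RpL11, the partner of RpL5 in the 5S particle, had its first bin (chr2R:19442342-19442377, plus strand, 5′-UTR) at 14.9 and 14.6 per 1000 gene counts in WT, 12.6 and 9.35 for SF1-IR, compared with 7.09 and 5.87 for Hrb87F-IR (log2 −0.82 ± 0.17, adjusted p = 0.093). RpS12 bin 1 took 86.0 and 84.6 in WT, 79.1 and 49.9 for SF1-IR, compared with 51.0 and 54.3 for Hrb87F-IR. RpS14a bin 1 took 143 and 139 in WT, 139 and 114 for SF1-IR, compared with 90.6 and 87.8 for Hrb87F-IR. In RpS12 the libraries SF1-IR replicate 2, Hrb87F-IR replicate 1 and Hrb87F-IR replicate 2 were the lowest. The others used less were bins of RpL12, RpS23, RpL7A, RpL35 and RpL9, and the one used more was RpL5 bin 1.

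Genes that make ribosomes were read from a list of 34 tested genes. In SF1-IR, 5 were higher at an adjusted p under 0.05 and none lower (2.76% and 4.7% of all tested genes), with a list median of 0.40. With library totals alone, which moved the median of all genes to 0.33, 15 were higher and the list median was 0.75. eIF6, which keeps the subunits apart until the large one is mature, stood at 6.77 and 6.42 CPM in WT, 24.7 and 30.6 CPM in SF1-IR and 7.20 and 5.77 CPM in Hrb87F-IR (log2 2.07 in SF1-IR, adjusted p = 0.0021). Sbds, which helps to release eIF6, stood at 8.35 and 9.62 CPM in WT, 24.1 and 22.6 CPM in SF1-IR and 10.3 and 10.8 CPM in Hrb87F-IR (log2 1.38, adjusted p = 0.0033). Both rose in SF1-IR, and the remaining 3 were Non1, Polr1A and CG4364. In Hrb87F-IR none of the 34 passed with edgeR, 10 were higher and 1 lower at an unadjusted p under 0.05 (7.75% and 7.41% of all tested genes), and DESeq2 called 2 higher and 1 lower at an adjusted p under 0.05. The list median was 0.22, and with library totals alone it was 0.42. In that setting 4 were higher at an adjusted p under 0.05 and 16 at an unadjusted p under 0.05. For DESeq2 and for library totals, the share of all tested genes is not given beside these list counts.

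Of 13 tested regulators of ribosomal protein genes and translation, Thor, the 4E-BP that holds back cap-dependent translation, was called in both knockdowns. It stood at 178 and 187 CPM in WT, 96.4 and 79.5 CPM in SF1-IR and 35.8 and 39.3 CPM in Hrb87F-IR, with log2 changes of −1.05 (adjusted p = 0.0053) and −2.28 (adjusted p = 0.0048). Irbp18, the partner of the stress factor Xrp1, stood at 12.1 and 10.1 CPM in WT, 26.8 and 27.2 CPM in SF1-IR and 9.87 and 10.02 CPM in Hrb87F-IR, and rose in SF1-IR by 1.29 (log2, adjusted p = 0.0039). Xrp1, which mediates the Minute response, stood at 381 and 425 CPM in WT, 651 and 542 CPM in SF1-IR and 377 and 331 CPM in Hrb87F-IR, and its log2 change of 0.57 in SF1-IR did not pass (adjusted p = 0.051). Rack1, a protein bound to the small subunit, was lower in SF1-IR at an adjusted p of 0.048, as was foxo at 0.041. In SF1-IR, 3 of the 13 were lower and 1 higher at an adjusted p under 0.05, against 4.7% and 2.76% of all tested genes. With library totals alone, 1 of the 13 was lower and 3 were higher in SF1-IR at this threshold, without a share of all tested genes beside them. The factors larp, Trf2, M1BP and Dref, which act on ribosomal protein mRNAs or promoters, had log2 changes from −0.61 to 0.32 and did not pass in either knockdown.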

How the data were processed

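Poly(A) mRNA was sequenced by the submitters from stranded paired-end libraries of pooled IFM. Per the study's methods, the authors mapped reads with STAR to BDGP6.22 (version 2.7.3a in the submitters' processing notes) and counted them with featureCounts (Subread 2.0.0). The deposited values are raw counts per exon bin and counts per gene, without normalization; a read over several bins counts in each. Whether counting used strand, and how reads with several matches were treated, is not given in the sources used here, nor whether WT and knockdown libraries were prepared together; if they were not, preparation and knockdown cannot be told apart. The authors' own fold changes and p-values were not used.

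Exon-bin counts were summed per gene. Between these sums and the counts per gene, log2 values correlated across genes at 0.982 to 0.983 in the knockdown libraries and at 0.899 and 0.818 in WT. This shows that the WT values differ between both kinds of count, but not which are right. The sums were taken as the main source, and the comparisons with WT depend on this choice. Positions and lengths were those deposited with the exon bins. Annotation classes and small nucleolar RNA positions came from BDGP6.54, whose exon bounds matched all 428 member bins. No coordinate was converted. Gene tests used edgeR 4.0.16 (filterByExpr, TMM, glmQLFit with robust fitting, glmQLFTest, R 4.3.3) on the 6 libraries in 1 fit with no covariate, with Benjamini-Hochberg adjustment over 11753 genes at 0.01 and, as a looser threshold, 0.05. Bins were tested with diffSpliceDGE over 53818 bins at an unadjusted p of 0.01. A standard error is the log2 change divided by the square root of F. Both steps were also run on simulated counts with the same spread for every gene or bin and no outlying libraries. Its outcome is not given here, and it does not cover reads counted in several bins. Paralog ratios used a pseudocount of 1 and a two-sided exact permutation test. Shares carry 95% Wilson intervals. Replicates were separate pools by their labels, with no more said of their origin. Alternatives used DESeq2 1.42.0, limma 3.58.1, other scalings, filters, fits and count sources, and each library left out.

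Members and lists were chosen with earlier results of these data known. Named were all paralog pairs with counts, sta, the stalk and ubiquitin fusion genes, members past the thresholds, the extremes of fold change and of level per length, bins with the smallest p, and listed regulators; RpL4, RpL36A, RpS13, RpL3 and RpS6 were added after their values were seen. Of 15 listed regulators, 13 had counts. Sequences were not analysed here, and a few members are counted but not reported by name.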

Additional observations from a re-analysis of the deposited data

How the results depend on the processing

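At an adjusted p under 0.01, SF1-IR against WT gave 1 member, and 14 at a threshold of 0.05, 21 with DESeq2, 2 with upper quartile scaling, 2 with no filter, 9 with at least 10 counts in every library, 0 with only the compared groups fitted and 59 with counts per gene; leaving out 1 library gave 0 to 1. Hrb87F-IR against WT gave 0, and 19, 44 with DESeq2, 8 with no filter, 22 with at least 10 counts and 61 with counts per gene. SF1-IR against Hrb87F-IR gave 1, and 8, 21 with DESeq2, 2 with upper quartile scaling, 3 with no filter, 9 with at least 10 counts and 0 with counts per gene; leaving out 1 library gave 0 to 1. Medians against WT moved to −1.30 in SF1-IR and −1.47 in Hrb87F-IR with counts per gene, where the shares of counts were 5.20% (WT), 3.27% (SF1-IR) and 2.79% (Hrb87F-IR), and RpL10 and RpL38 reversed in Hrb87F-IR, to 0.40 and 3.97. The WT columns of that table do not match the exon-bin counts; the cause was not tested. Leaving out 1 library moved the SF1-IR median between −0.32 and −0.12. Bins passing in SF1-IR numbered 19, 8 after adjustment, and 10 to 17 with 1 library left out. In Hrb87F-IR they numbered 9, 0 after adjustment, 19 with limma, and 2 to 13 with 1 library left out.

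Chosen after seeing the data, library totals alone gave medians of 0.12 (reversed) in SF1-IR, −0.23 in Hrb87F-IR and 0.35 between the knockdowns, with 6 members called in the last. Without both WT replicate 1 and SF1-IR replicate 2, where the lone library of a group is assumed to vary like the others, 10, 25 and 3 members were called in the 3 comparisons, the SF1-IR median was −0.35, and 18 bins passed in SF1-IR.

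The labels do not say whether same-numbered libraries were paired. Deviations of same-numbered libraries correlated at −0.74 for WT with SF1-IR, −0.56 for WT with Hrb87F-IR and 0.51 between the knockdowns. Such correlations over all genes cannot exclude a shared collection or preparation, so that pairing stays undecided. With the replicate block, 0 members were called in SF1-IR against WT and 0 between the knockdowns, and at an adjusted p under 0.05 the counts of 14 in SF1-IR, 19 in Hrb87F-IR and 8 between the knockdowns became 2, 0 and 1. A block with the WT numbers crossed, chosen after seeing the data, called 14, 22 and 9 members in the 3 comparisons.

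At this depth the copies RpL37-2, RpS28a and RpS5b stayed under 30 counts in every library, too few to compare groups.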
